A study of Rattus norvegicus with 2 samples.

Results

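The genes of the cytosolic and the mitochondrial ribosomal proteins were examined on a pair of Clariom S arrays, 1 with RNA of cocaine-treated rat tissue and 1 with RNA of control tissue. Members were taken by gene symbol. They were all probe sets whose symbol in the platform annotation starts Rpl, Rps, Rplp, Mrpl or Mrps followed by a digit, without the Rps6k kinases. This gave 142 of 15037 named genes, 76 of them cytosolic and 66 mitochondrial, each measured by 1 probe set. The cocaine sample came from male Sprague Dawley rats dosed at 20 mg/kg/day over 14 days by tail vein injection. The control sample was of the same sex and strain. Its label gives no stimulation, whereas the methods of the study describe saline on the same schedule. By those methods the rats were 8 weeks old, and tissue was taken 24 h after the last dose. No transgene or mutant strain was involved, and the labels give the tissue of both as left ventricle. Whether an array held RNA of 1 animal or of a pool is not given in the labels or methods. Neither condition was replicated, which leaves no error to set a difference against. The values are descriptions of these arrays and come without tests.

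A ribosome is built of ribosomal RNA and a full set of ribosomal proteins in a small subunit, which reads the mRNA, and a large subunit, which joins the amino acids. The cytosolic set (Rps and Rpl genes) makes nearly all proteins of the cell. Most of its mRNAs begin with a run of pyrimidines, the TOP sequence, through which the mTORC1 kinase and the protein LARP1 control their translation together. The mitochondrial set (Mrps and Mrpl genes) is encoded in the nucleus, imported into the mitochondria and descends from bacterial ribosomal proteins, with many additions of its own. Mitochondrial ribosomes make the few subunits of the respiratory chain that mitochondrial DNA encodes, which gives them a particular weight in heart muscle.

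The values are intensities on a linear scale, which the authors had normalized before deposit. Their medians over all probe sets were 180.9 in the cocaine sample and 181.6 in the control sample. The change of a gene is given as a log2 ratio, the log2 intensity in the cocaine sample minus that in the control sample. A background limit of 64.1 in the cocaine sample and 71.5 in the control sample was taken from 1155 olfactory and vomeronasal receptor genes, as the 95th percentile of their values. Both arrays, although labelled left ventricle, were bright for lung epithelium, and only part of the heart markers were above that limit. All 10 alveolar and airway markers lay above it on both arrays, at intensities of 16219 to 999971 in the cocaine sample and 12492 to 999971 in the control sample. Of 17 cardiomyocyte markers, 14 lay above it in the cocaine sample and 10 in the control sample, and 14 were higher in the cocaine sample. Of these, Myh7 and Myl3 were under the limit on both arrays, while Myl2 had 6344 in the cocaine sample and 7778 in the control sample, and Actc1 had 5276 and 1842. Ribosomes are present in every cell, so differences between the arrays in the make-up of the tissue and in the RNA of its cells cannot be told apart.

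Cytosolic ribosomal protein genes were among the brightest genes of both arrays, and mitochondrial ones lay near the middle of the range. The median cytosolic intensity was 24455 in the cocaine sample and 28105 in the control sample, at percentiles 97.2 and 97.6 of all named genes. Without the 10 copies it was 36991 in the cocaine sample and 34142 in the control sample. The order of the arrays by this median thus depends on the members counted. The brightest was Rps29, a small subunit protein, with 596499 in the cocaine sample and 661619 in the control sample. Rpl31, of the large subunit, followed with 378176 and 433443. The median mitochondrial intensity was 583.4 in the cocaine sample and 507.8 in the control sample, at percentiles 62.3 and 60.7. The brightest mitochondrial member was Mrpl53, of the large subunit, with 7626 and 5704. None of the mitochondrial members reached the cytosolic median on either array. Probe sets bind with unequal strength, so the order of levels between genes is approximate. Summed over members, cytosolic genes held 7.53% of the intensity of all named genes in the cocaine sample and 8.12% in the control sample, and mitochondrial genes held 0.110% and 0.104%.

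**Figure D1:**
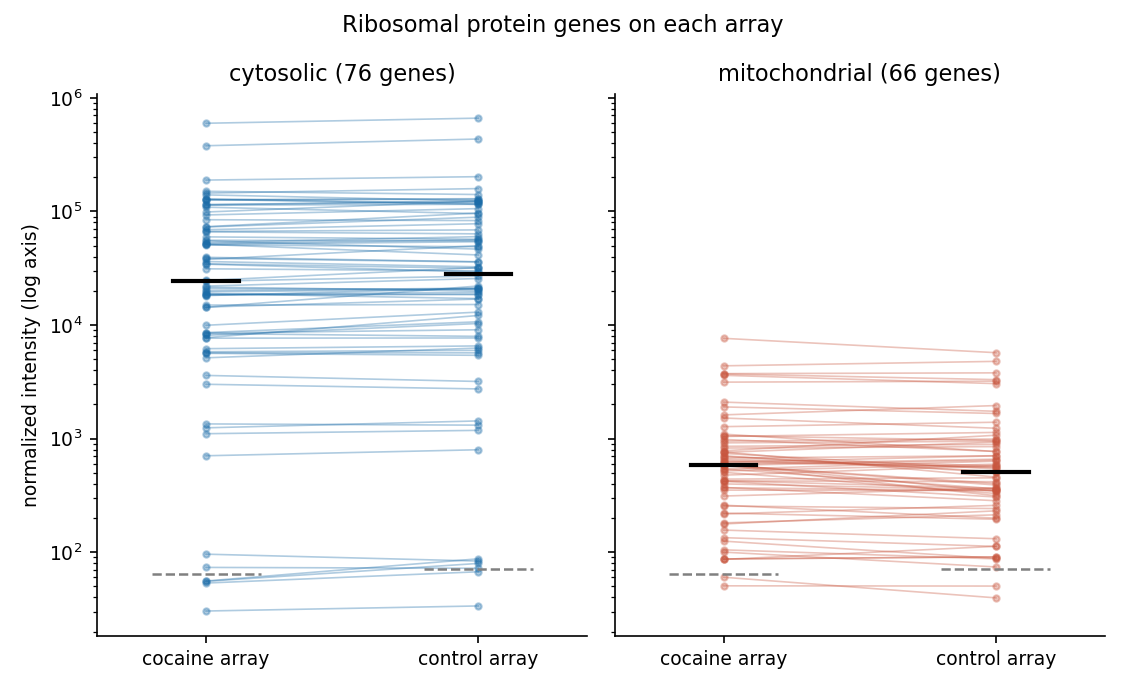
Normalized intensity (log axis) of each of the 76 cytosolic and 66 mitochondrial ribosomal protein genes on the cocaine and the control array, with a line joining the values of a gene, a black bar at the class median and a dashed bar at the background limit of that array. Most lines are close to level, and the cytosolic median (24455 in the cocaine sample, 28105 in the control sample) lies far above the mitochondrial one (583.4 and 507.8).

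The cytosolic class was slightly lower in the cocaine sample than in the control sample, and the mitochondrial class slightly higher. Of the 76 cytosolic genes 46, or 60.5%, were lower in the cocaine sample, whereas 47.3% of all 15037 named genes were lower. Of the 66 mitochondrial genes 39, or 59.1%, were higher, beside 52.4% of all named genes. The median log2 ratio was -0.06 for the cytosolic genes, 0.15 for the mitochondrial genes and 0.02 for all named genes, so that the cytosolic median lay 0.20 below the mitochondrial one. Bright genes in general were not lower in the cocaine sample. The 1504 named genes at or above the 90th percentile of mean level had a median of 0.06, with 61.9% higher and 37.9% lower. The 5905 named genes in the level range of the mitochondrial members had a median of 0.05, and 56.7% of them were higher. The separation of the classes could not be tested with 1 array each. Within each class the ratio had little relation to level, with a Spearman's rho across genes of 0.14 over 76 cytosolic genes and -0.12 over 66 mitochondrial genes. The genes of a class share both arrays and are not independent replicates.

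**Figure D2:**
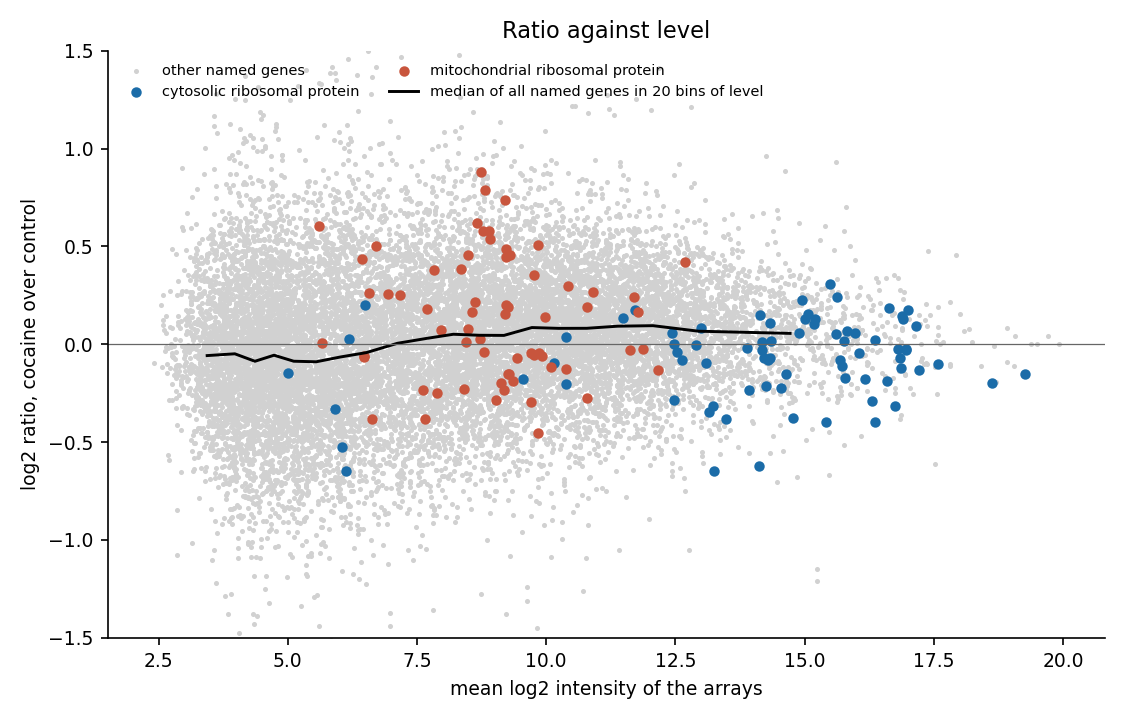
Log2 ratio of cocaine over control against the mean log2 intensity of the arrays for cytosolic (blue) and mitochondrial (red) ribosomal protein genes and all other named genes (grey), with the median of all named genes in 20 bins of level as a black line. The axis leaves out 33 other genes with larger ratios and no member, and most cytosolic genes lie below the line of the bright genes, whose median ratio was 0.06 at or above the 90th percentile of level.

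Differences of single members were small in the cytosolic class and wider in the mitochondrial class. Log2 ratios ran from -0.65 to 0.31 with an SD across genes of 0.21 in the cytosolic class, and from -0.45 to 0.88 with an SD of 0.32 in the mitochondrial class. Over all named genes this SD was 0.36, and over those at or above the 90th percentile of level it was 0.25. Over those in the level range of the mitochondrial members it was 0.36, wider than in the mitochondrial class. None of the cytosolic genes was at least 1.5-fold higher and 3 were at least 1.5-fold lower, while 5 mitochondrial genes were at least 1.5-fold higher and none that much lower. Over all named genes, 4.63% were higher by 1.5-fold or more and 4.95% lower by that much. Beside all named genes, the cytosolic count of 3 in 76 was near that share, and the mitochondrial count of 5 in 66 somewhat above it. At that size, 1.86% of the named genes at or above the 90th percentile of level were higher and 0.864% lower. Of those in the level range of the mitochondrial members, 5.40% were higher and 3.74% lower. Beside the bright genes the cytosolic count was above the share, though the class also holds some dim copies. Without the 10 copies it was 2 in 66. Beside genes of its level range the mitochondrial count was closer to the share. Rps7-ps20, among the 3, was under the background limit in the cocaine sample, and Mrpl12, among the 5, on both arrays. At 1.2-fold, 1 cytosolic gene was higher and 14 were lower, or 10 without the copies, whereas 22 mitochondrial genes were higher and 6 lower. Of all named genes, 22.4% were higher by that much and 20.0% lower. The named genes at or above the 90th percentile of level had 18.9% and 6.85%, and those in the level range of the mitochondrial members 24.9% and 17.4%. No member reached 2-fold in either direction, which 0.698% of all named genes did upward and 0.599% downward.

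**Figure D3:**
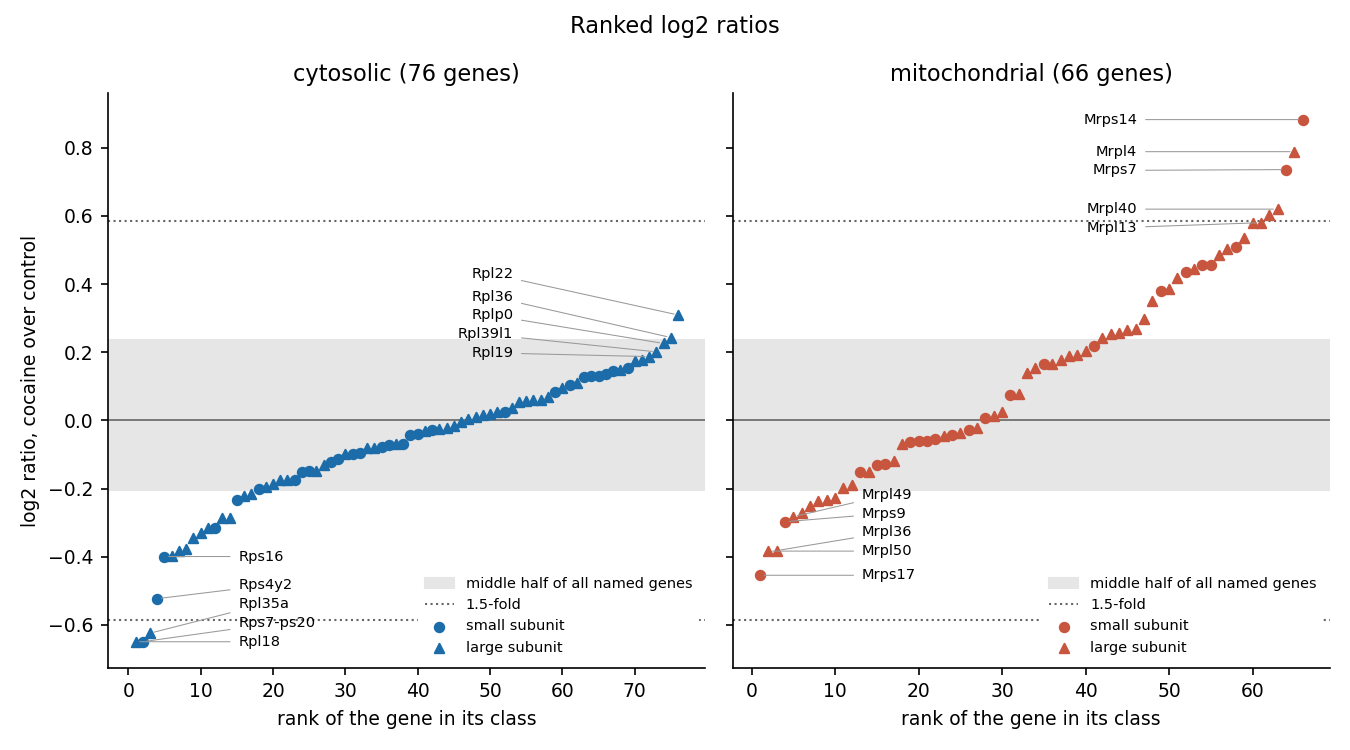
Log2 ratio of cocaine over control of each cytosolic (left) and mitochondrial (right) ribosomal protein gene, ranked within its class, with small subunit genes as circles and large subunit genes as triangles, a grey band for the middle 50% of all named genes and dotted lines at 1.5-fold. The 3 lowest cytosolic genes (Rpl18, Rps7-ps20 and Rpl35a) pass the lower line, and 5 mitochondrial genes pass the upper one, Mrps14 the furthest at 0.88.

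Among bright cytosolic genes, Rpl18 and Rpl35a of the large subunit had the lowest ratios, followed by Rps16 of the small subunit. Rpl18 had an intensity of 7727 in the cocaine sample and 12120.5 in the control sample, which was 1.57-fold lower. Rpl35a, a large subunit protein mutated in some patients with Diamond-Blackfan anemia, had 14297 and 22038, which was 1.54-fold lower. Both were bright on each array, far above the background limit. The probe set of Rpl35a carries no chromosome in its ID, whereas that of Rpl18 carries chromosome 1, where its gene lies. The pseudogene Rps7-ps20 had 55.7 in the cocaine sample, under the limit, and 87.4 in the control sample. With values under 71.5 raised to that limit, its log2 ratio was -0.29 and no longer 1.5-fold. Its parent Rps7 stood at 126877 and 129248, a log2 ratio of -0.03. Rps16, a small subunit protein near the decoding site, was 1.32-fold lower, at 37830 against 49898. Rpl28, Rpl29, Rpl30, Rpl24 and Rpl34 of the large subunit were lower by log2 ratios of -0.40 to -0.32, and Rps25 of the small subunit by -0.31.

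The cytosolic genes that were higher in the cocaine sample differed less. Rpl22, a large subunit protein that ribosomes can do without and that is lost in some T cell leukemias, had 51202 in the cocaine sample and 41320 in the control sample, or 1.24-fold higher. It was the only cytosolic member at least 1.2-fold higher. Rpl36 had 55056 and 46518, a log2 ratio of 0.24. Rplp0, the base of the stalk that recruits translation factors, had 34295 and 29327, a log2 ratio of 0.23. Its stalk partners were lower, with Rplp1 at -0.10 and Rplp2 at -0.21. Rpl19 had a log2 ratio of 0.19. Rpl39l1, a copy of Rpl39, stood at 96.0 and 83.5, only a little above the background limit. The small subunit genes had a median log2 ratio of -0.08 over 28 genes, 19 of them lower, and the large subunit genes one of -0.02 over 48 genes, 27 of them lower. The means lay closer, at -0.09 for the small and -0.08 for the large subunit.

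Several members are measured in other work for reasons of their own. Rps6, whose protein is phosphorylated downstream of mTORC1, had 128498 in the cocaine sample and 117360 in the control sample, a log2 ratio of 0.13. Rpl5 and Rpl11, which bind MDM2 and so raise p53 when ribosome assembly fails, had unlike ratios. Rpl5 had 84390 and 82999, a log2 ratio of 0.02, while Rpl11 had 72845 and 88902, a log2 ratio of -0.29. Rps19, the gene most often mutated in Diamond-Blackfan anemia, had a log2 ratio of -0.15. Of the members that serve as reference genes in PCR assays, Rpl32 had 0.06, Rpl13a 0.05, Rps18 -0.09 and Rplp0 0.23. Rplp0 had the value farthest from 0 among these reference genes.

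Copies and tissue-restricted forms were mostly dim. Rpl3l, which takes the place of Rpl3 in heart and skeletal muscle, had an intensity of 30.3 in the cocaine sample and 33.6 in the control sample, under the background limit on both. Its parent Rpl3 stood at 18907 and 17068, a log2 ratio of 0.15. On the same arrays 14 of 17 cardiomyocyte markers lay above the limit in the cocaine sample and 10 of 17 in the control sample, and 2 of 8 skeletal muscle markers did so on each array. Rpl39 and Rpl7, whose families also hold such copies, had log2 ratios of 0.06 and 0.09. Rpl22l1, the paralog of Rpl22, had 3596 and 3182, a log2 ratio of 0.18, and so was higher along with its parent. Rps27l, a p53-induced paralog, had 1104 and 1181, a log2 ratio of -0.10, and its parent Rps27 had one of -0.23. The copy Rpl36al1 had -0.29, and its parent Rpl36a had -0.07. The probe set of Rpl36al1 carries chromosome 18 in its ID, whereas the gene lies on chromosome 6 in GRCr8. Rps4y2, a copy on chromosome 4, had 55.4 and 79.6, the cocaine value under the limit and the log2 ratio -0.15 with values raised to 71.5, while Rps4x on the X chromosome had 127518 and 115251, a log2 ratio of 0.15. In all, 72 of the 76 cytosolic members exceeded the limit on both arrays, 2 in the control sample alone, and Rpl3l and Rpl27l2 on neither. Ribosomal protein genes have many processed copies in the genome. The GRCr8 gene table lists 760 pseudogene entries named for 67 of the cytosolic members, with 36 for Rps2, and 36 entries for 21 mitochondrial members. Whether a probe set also binds RNA of near-identical copies, and their part in the ratios, was not tested.

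The mitochondrial members that were highest in the cocaine sample relative to the control sample came from both subunits. Mrps14, a small subunit protein near the decoding center, had an intensity of 578.8 in the cocaine sample and 314.0 in the control sample, or 1.84-fold higher. Mrpl4, of the large subunit, had 593.6 and 343.7, or 1.73-fold higher. Mrps7, which binds the small subunit ribosomal RNA, had 763.2 and 458.3, or 1.67-fold higher. Mrpl40 had 504.7 and 328.4, or 1.54-fold higher, but its log2 ratio of 0.62 was 0.56 after quantile normalization and 0.57 after loess on level, both under 1.5-fold. All 4 were well above the background limit on both arrays. The fifth, Mrpl12, which forms the mitochondrial stalk and also binds the mitochondrial RNA polymerase, had 60.2 and 39.6 and lay under the limit on both. Its stalk base Mrpl10 had 673.6 and 706.2, a log2 ratio of -0.07. Just under 1.5-fold, Mrpl13 and Mrpl22 of the large subunit had log2 ratios of 0.58 each. Mrpl15, Mrps23, Mrpl16 and Mrpl45 followed, with log2 ratios of 0.54 to 0.49.

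Some mitochondrial members were lower. Mrps17, of the small subunit, had 780.5 in the cocaine sample and 1069 in the control sample, which was 1.37-fold lower. Mrpl50 had 177.2 and 231.1, and Mrpl36 had 86.4 and 112.5, each with a log2 ratio of -0.38. Mrps9 had -0.30 and Mrpl49 -0.28. The 3 forms of the S18 protein, of which that of Mrps18c sits where the bacterial protein does, differed, with Mrps18b at 0.38, Mrps18c at 0.17 and Mrps18a at -0.12. Of the 66 mitochondrial members, 64 exceeded the background limit in both samples, and Mrpl12 and Mrps34 on neither. The large subunit, with Mrps18a and Mrps30 counted in it, had a median log2 ratio of 0.17 and a mean of 0.14 over 44 genes. Of these, 28 were higher. The small subunit had 11 genes higher and 11 lower, with a median of -0.01 and a mean of 0.13. The 27 proteins with no bacterial counterpart had a median of 0.22, and 18 were higher. The 39 with a counterpart had a median of 0.03, and 21 were higher. The means lay closer, at 0.16 without and 0.12 with a counterpart.

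Cytosolic and mitochondrial members of the same conserved protein family could be set side by side in 21 pairs. The cytosolic ratio was the lower of the pair in 14 of them and the higher in 7, with a median difference, cytosolic minus mitochondrial, of -0.13. In 6 pairs the cytosolic gene was lower and the mitochondrial gene higher in the cocaine sample, and in 4 pairs the reverse held. Both genes were higher in 6 pairs and both lower in 5. The widest gap was that of family uS14, a small subunit protein of the decoding region, with Rps29 at -0.15 and Mrps14 at 0.88. In family uL22, which lines the exit tunnel, Rpl17 had -0.13 and Mrpl22 0.58, and in family uL4, another protein of the tunnel, Rpl4 had 0.17 and Mrpl4 0.79. In family uL16 Rpl10 had -0.18 and Mrpl16 0.50. The pairs of the stalk base, Rplp0 and Mrpl10, and of uL29, Rpl35 and Mrpl47, ran the other way, with the cytosolic gene the higher by 0.29 and 0.30. Some pairs were close, as in uS5 with Rps2 at -0.04 and Mrps5 at -0.05, and in uS12 with Rps23 at -0.08 and Mrps12 at -0.06.

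**Figure D4:**
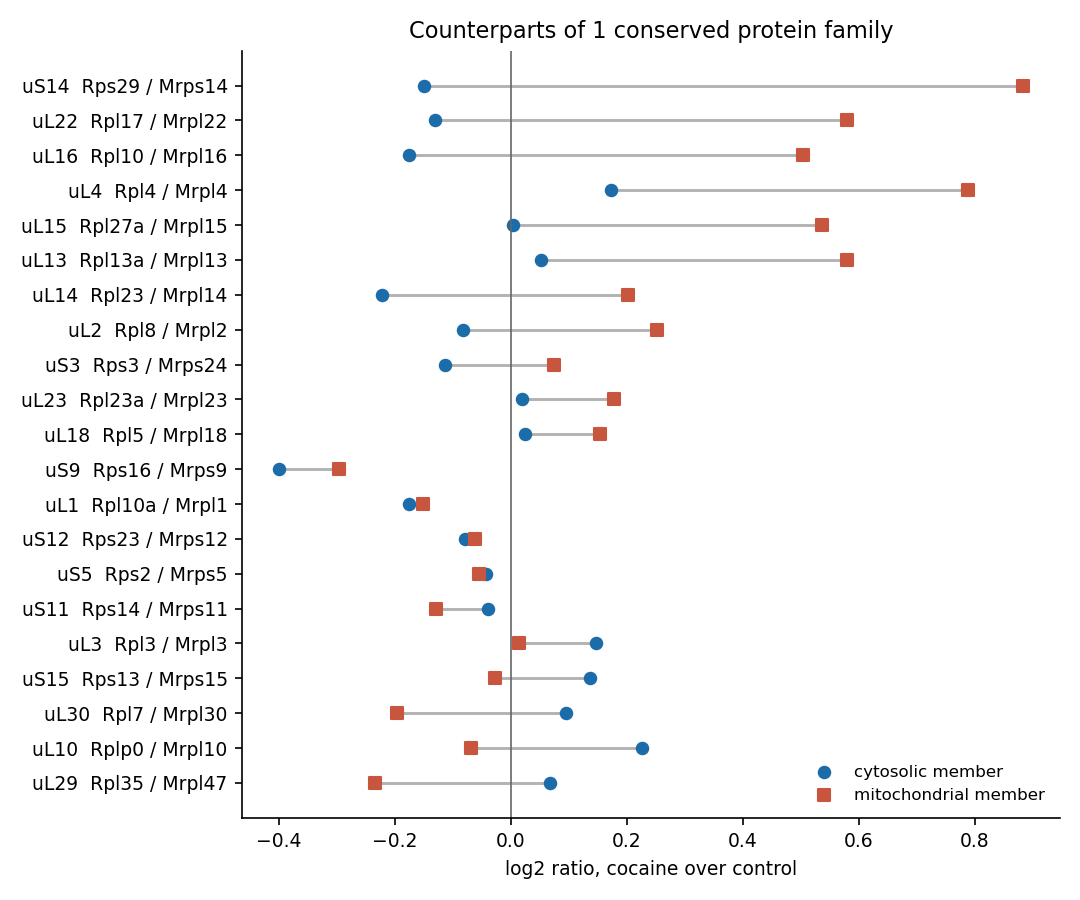
Log2 ratio of cocaine over control of the cytosolic (blue circle) and the mitochondrial (red square) member of each of 21 conserved ribosomal protein families, ordered by the difference between them. In 14 families the cytosolic member lies to the left of the mitochondrial one, most widely in uS14 (Rps29 at -0.15, Mrps14 at 0.88).

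The start regions of the genes differed between the classes in a feature that the symbol rule did not use. RefSeq lists start regions in the GRCr8 assembly (250 bases before to 50 bases from the annotated start) for 119 of the 142 members, 64 cytosolic and 55 mitochondrial. The stretches from 10 bases before to 20 bases from the start are shown for members with large differences and for the longest of the runs defined next. Capitals mark an unbroken run of C and T that begins with C at the annotated start and holds at least 5 bases, as a TOP sequence does.
Rpl10 (chrX:157205840-157205869, + strand): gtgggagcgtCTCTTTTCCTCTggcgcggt
Rpl31 (chr9:49143101-49143130, + strand): atccctcgcgCCTTTCCTTTCCaacttggg
Rpl37a (chr9:81748081-81748110, + strand): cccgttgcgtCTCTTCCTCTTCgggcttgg
Rpl35a (chr11:81235002-81235031, - strand): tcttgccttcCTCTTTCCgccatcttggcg
Rpl22 (chr5:168117951-168117980, + strand): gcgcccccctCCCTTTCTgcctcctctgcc
Rplp0 (chr12:46718371-46718400, - strand): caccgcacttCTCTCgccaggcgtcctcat
Rpl18 (chr1:105325260-105325289, + strand): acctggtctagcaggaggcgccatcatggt
Mrpl4 (chr8:27815761-27815790, + strand): cattggtttgCTTCCggagcccgctctccg
Mrps14 (chr13:74962587-74962616, + strand): acgcggcggtggttggctggctaggcagac
Mrps7 (chr10:101342632-101342661, + strand): ggtcctgatagcggccaagatggctgcccc
Among runs that begin with C at the annotated start, those of Rpl10, Rpl31 and Rpl37a, 12 bases each, were the longest. Longer runs that begin with T at the annotated start, as in Rps23 and Rpl27a, were not counted. Rpl35a, 1.54-fold lower in the cocaine sample, and Rpl22, 1.24-fold higher, both begin with a run of 8 bases. Rpl18, 1.57-fold lower, has none at its annotated start, and neither do Mrps14 and Mrps7.

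Such a run stood at 23 of 64 cytosolic starts, or 35.9%, and at 2 of 57 mitochondrial starts, or 3.51%, those of Mrpl4 and Mrps5. Over the 33469 starts of all genes in the table the share was 2.63%, and over those of protein-coding genes 2.52%. Annotated starts can be off by a few bases. With the run allowed to begin within 5 bases of the start on either side, the shares were 59.4% of cytosolic starts, 24.6% of mitochondrial starts and 17.0% of all starts. Of the 23 cytosolic genes with the run at the start, 16 were lower in the cocaine sample, with a median log2 ratio of -0.09. Of the 41 without it, 23 were lower, with a median of -0.03. With the run allowed within 5 bases, 24 of 38 genes with it were lower (median -0.07) and 15 of 26 without it (median -0.04). Cytosolic genes with the run at the start had ratios from -0.62 to 0.31, and those without it from -0.65 to 0.24, so they overlapped.

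Motifs of other factors were searched on both strands of the whole start region. Shares are given beside those of the starts of protein-coding genes and of all genes in the table. The letters CCGGAAG, bound by ETS factors such as GABP, stood in 28.1% of cytosolic and 33.3% of mitochondrial starts, beside 10.7% of protein-coding and 8.75% of all starts. The letters GCATGCGC, part of the site of NRF1, a regulator of nuclear genes for mitochondria, stood in 4.69% and 8.77%, beside 3.11% and 2.47%. GGGCGG, the site of SP1, stood in 54.7% and 50.9%, beside 41.8% and 33.1%. CCAAT stood in 23.4% of cytosolic and 45.6% of mitochondrial starts, beside 38.0% and 37.5%, and TATAAA in 12.5% and 14.0%, beside 13.0% and 14.2%.

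Ratios were also set out by motif within each class, for all of these motifs. Of the mitochondrial genes, the 26 with CCAAT had a median log2 ratio of -0.04 and the 29 without it 0.22. Their ranges overlapped widely, from -0.45 to 0.79 with it and from -0.27 to 0.88 without it. Among the cytosolic genes the order of the medians was turned, with -0.04 for the 15 with CCAAT and -0.07 for the 49 without it. With the ETS letters the medians were 0.17 over 19 mitochondrial genes and -0.03 over 18 cytosolic genes, and without them 0.07 over 36 and -0.08 over 46. With the SP1 letters they were 0.17 over 29 mitochondrial and -0.08 over 35 cytosolic genes, and without them 0.08 over 26 and -0.03 over 29. The NRF1 letters stood in only 5 mitochondrial genes, with a median of 0.38 against 0.11 in the other 50, and in 3 cytosolic genes, with -0.18 against -0.04 in the other 61. The TATAAA letters gave -0.0044 over 8 mitochondrial genes against 0.17 over 47, and -0.06 in cytosolic genes both with (8) and without (56) them. These matches are descriptions of the letters in the window and were chosen with the ratios known.

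**Figure D5:**
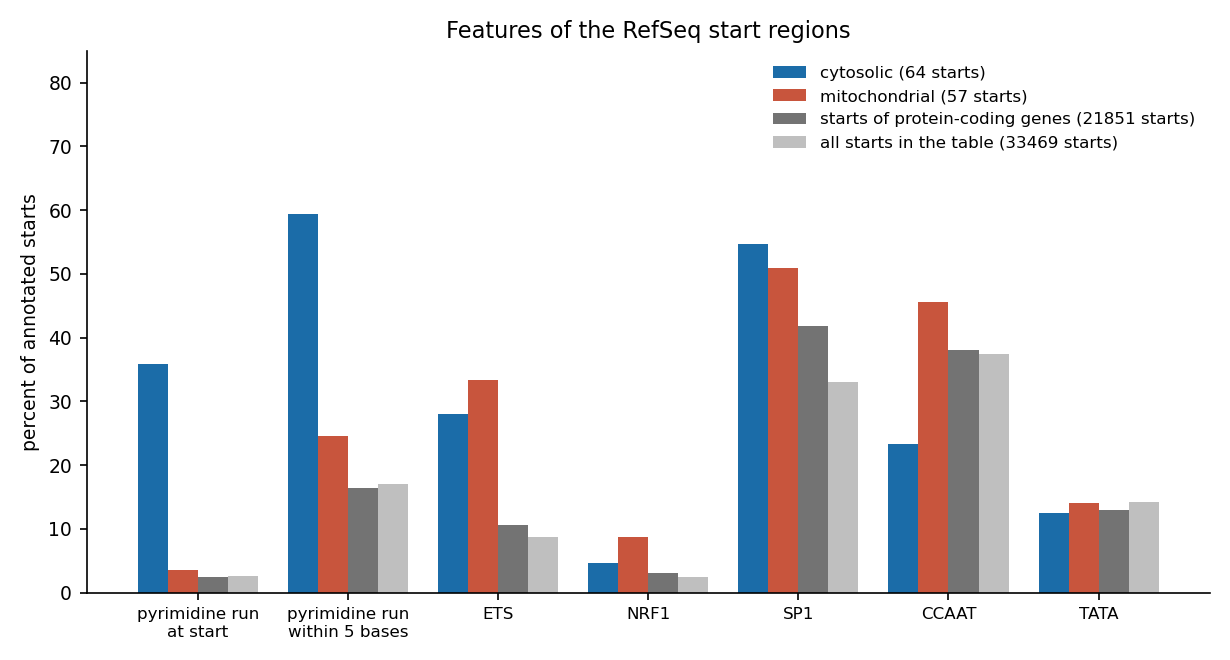
Percent of RefSeq start regions that hold each feature, for cytosolic (64 starts) and mitochondrial (57 starts) ribosomal protein genes, protein-coding genes (21851 starts) and all genes in the table (33469 starts). A pyrimidine run at the start stands in 35.9% of cytosolic starts and in 3.51% of mitochondrial ones, while the ETS letters are frequent in both classes (28.1% and 33.3%).

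Most lists of genes that work with the cytosolic ribosome had medians near or above that of all named genes. Of all named genes 52.4% were higher in the cocaine sample, and of those at or above the 90th percentile of level 61.9%. Of 3 measured cytosolic ribosomal proteins with other names, all were lower in the cocaine sample, Fau with a log2 ratio of -0.20, Rpsa with -0.16 and Rack1 with -0.06. Of 16 measured TOP mRNAs that encode no ribosomal protein, 10, or 62.5%, were higher and 6 lower. Their median of 0.05 was -0.01 after a loess correction on level. Eef1a1, the elongation factor that brings tRNA to the ribosome, stood at 684668 in the cocaine sample and 684411 in the control sample, and Eef2, which moves the ribosome along, at 116845 and 117270. Of 38 cytosolic translation factors 24, or 63.2%, were higher, with a median of 0.07 and the initiation factor gene Eif3d highest at 0.47. The cytosolic ribosomal protein genes themselves had a median of -0.06, beside 0.06 for all named genes at or above the 90th percentile of level. Of 43 factors of ribosome assembly and the nucleolus 29, or 67.4%, were higher, with a median of 0.12. Grwd1 and Rrs1, which help to assemble the large subunit, had 0.62 and 0.59, whereas Polr1b, a subunit of RNA polymerase I, had -0.86 and the rRNA methyltransferase gene Nop2 -0.62. Of 16 measured genes of the mTORC1 pathway and its targets 6 were higher and 10 lower (median -0.02). Rptor, a subunit of mTORC1, had 0.55, and the kinase gene Mtor -0.35.

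Genes of the partners of the mitochondrial ribosome were higher in some cases and lower in others. Of 5 measured mitochondrial ribosomal proteins with other names 2 were higher and 3 lower, with Dap3 highest at 0.30. Of 29 factors of mitochondrial translation and ribosome assembly 18, or 62.1%, were higher. The share was 52.4% over all named genes and 56.7% over those in the level range of the mitochondrial members. The median log2 ratio of the factors was 0.03, beside 0.15 for the mitochondrial ribosomal proteins. Fastkd2, an RNA-binding protein needed for the mitochondrial large subunit, had 479.1 in the cocaine sample and 320.5 in the control sample, a log2 ratio of 0.58. Mrm3, a methyltransferase of the mitochondrial large subunit RNA, had 93.2 and 154.9, and Mpv17l2, a factor of ribosome assembly, had 112.9 and 186.5, log2 ratios of -0.73 and -0.72. Of 13 mitochondrial aminoacyl-tRNA synthetases, which load tRNAs with amino acids, 7 were higher and 6 lower. Hars2 had 589.6 and 317.0, a log2 ratio of 0.90, and Vars2 stayed below the background limit in both samples.

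Markers of other cells differed between the arrays beside these classes. On the cocaine array 7 of 7 neutrophil markers and 5 of 5 red blood cell markers were higher, with median log2 ratios of 1.03 and 0.63. Of these, Ngp was under the background limit on both arrays, and Cxcr2, Slc4a1 and Ahsp were under it in the control sample. The T and NK cell list had 8 of 10 genes lower (median -0.23), and the B cell list 3 of 3 (median -0.62). The large falls in the T and NK cell list were Gzma (-1.53), Nkg7 (-1.45), Prf1 (-1.05) and Gzmb (-0.92). Its other genes, Cd3d, Cd3e, Cd3g, Cd2, Cd4 and Cd8a, lay between -0.24 and 0.27. Of 17 cardiomyocyte markers 14 were higher, with a median of 1.35. Of 5 proliferation markers only Mki67 and Pcna exceeded the background limit on both arrays, with log2 ratios of 0.51 and 0.40. Summed intensities were 43647 in the cocaine sample and 29263 in the control sample for the cardiomyocyte list, 16362 and 5092 for the neutrophil list, and 231753 and 160645 for the red blood cell list. They were 11380 and 21295 for the T and NK cell list, 913 and 1463 for the B cell list, and 3106539 and 3127739 for the alveolar and airway list. A few genes held most of some sums. Atp2a2 had 28671 and 18344 of the cardiomyocyte sums, and Lcn2 had 13039 and 3589 of the neutrophil sums. Hbb had 203730 and 146176 of the red blood cell sums. In the T and NK cell sums Prf1 had 4836 and 10031, and Gzma had 1995 and 5764. The part of these cells in the ratios of the ribosomal protein genes was not tested.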

How the data were processed

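RNA of 1 cocaine and 1 control sample, both labelled left ventricle, was measured on Clariom S arrays. The values the authors deposited are intensities, 1 for each probe set of an array, normalized but not log-transformed. MAS5 is named by the processing notes of the submitters and the Transcriptome Analysis Console by the methods, while the sources used here give no version, genome build or kind of normalization. Of 24834 probe sets, 15049 had 1 gene symbol and none several. Each intensity was converted to log2 without a pseudocount, and a gene took the mean of its probe sets. No filter on level was applied. With 1 array each no test was possible, and precision is limited by the number of arrays. Counts and medians are therefore given beside those of all named genes.

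The members, lists and thresholds were chosen with earlier results of these data known. Named genes were the 5 largest rises and 5 largest falls of each class above the background limit on either array, paralogs with their parents, stalk proteins, Rps6, Rpl5, Rpl11, Rps19 and the PCR reference genes. Further genes were named with their values known. Conserved families were assigned from general knowledge. Start regions and gene chromosomes came from RefSeq tables of GRCr8, matched by gene ID. The 1.5-fold threshold and the median of the members, unscaled, centred, quantile normalized and after loess, were tested on simulated data. The other steps were not tested in this way. Python 3.11.15, numpy 2.4.6, pandas 2.3.3, statsmodels 0.14.6 and matplotlib 3.10.9 were used.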

Additional observations from a re-analysis of the deposited data

How the results depend on the processing

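Precision is limited by the number of arrays, 1 per condition. Members near or under the background limit (Rps7-ps20, Rps4y2 and Mrpl12 among those named) are the least certain. No paired analysis was possible because each condition has 1 array, so no array was left out either. The class medians kept their sign in the settings below. The median of all named genes lay between -0.08 and 0.02 in every setting.

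The median log2 ratio of the cytosolic genes, -0.056 as reported, was -0.0741 with each array centred on its median, -0.0837 after quantile normalization and -0.0972 after loess on level. It was -0.0351 both with values raised to the higher background limit and with only members above the limit on both arrays, and -0.0392 without the listed paralogs. It was -0.0686 with the ribosomal proteins of other names added. Of the settings chosen after seeing the data, leaving out all copies gave -0.0413. Another such setting, with only the 60 members whose probe set ID carries the gene's chromosome, gave -0.0709. Of the members that it left out, 15 had no chromosome in the probe set ID, and Rpl36al1 had a different one. The mitochondrial median, 0.147 as reported, was 0.129 when centred, 0.0655 after quantile normalization, 0.0779 after loess, 0.109 with values raised to the higher limit and 0.0782 with the proteins of other names added.

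The cytosolic minus the mitochondrial median, -0.203 as reported, was -0.149 after quantile normalization, -0.175 after loess, -0.144 with values raised to the higher limit and -0.182 with only members above the limit. It was -0.186 without the listed paralogs, -0.188 without all copies and -0.147 with the proteins of other names. With only the cytosolic members whose probe set ID carries the gene's chromosome it was -0.218. Against genes at or above the 90th percentile of level the cytosolic median differed by -0.117. Against genes of their level range, a background chosen after seeing the data, the mitochondrial median differed by 0.0952.

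At 1.2-fold, 1 cytosolic gene was higher and 14 were lower, and 22 mitochondrial genes were higher and 6 lower. The 5 mitochondrial genes at least 1.5-fold higher were 4 when centred, after quantile normalization, after loess, with either floor and with only members above the limit. These 4 were not the same genes throughout. Mrpl40 fell under 1.5-fold after quantile normalization and after loess, while the filter on the limit took out Mrpl12. Mrps14, Mrpl4 and Mrps7 passed 1.5-fold in all of these settings. The 3 cytosolic genes lower by that much were 2 with values raised to the higher limit, with only members above it, and without paralogs or copies. They were also 2 with only the members whose probe set ID carries the gene's chromosome. At 2-fold, 0 cytosolic genes were lower and 0 mitochondrial genes higher. After quantile normalization the median cytosolic intensity was 24085 in the cocaine sample and 28600.5 in the control sample, and the mitochondrial one 575.7 and 518.5. The median of the non-ribosomal TOP mRNAs had the other direction after loess, at -0.01.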
